A study of Mus musculus with 12 samples.

Results

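Blood vessels of mouse teratomas were followed through 10 endothelial genes, Pecam1, Cdh5, Cldn5, Kdr, Flt1, Tek, Erg, Vwf, Emcn and Plvap. They were taken by name, as markers of the cells that line blood vessels, by a rule that uses no measured value, but with earlier results of these data known. They are 10 of the 38986 genes listed in every library, and all 10 passed the filter on low counts that left 18405 genes for testing. Their levels were compared as a measure of how much vessel RNA each teratoma held.

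A teratoma is a mixed tumour that pluripotent cells form when they are injected into a mouse. The 4 groups came from R1 mouse embryonic stem cells (mouse ES cells) carrying the pEZ-LV235 CAG vector, in which the CAG promoter drives the insert: empty (ET), with wild-type Dnmt3L (WT), or with Dnmt3L whose lysine at K238 or K412 was replaced by arginine (K238R and K412R). Dnmt3L is a catalytically inactive cofactor of the enzymes that write new DNA methylation, and the K238R and K412R forms cannot be acetylated at that lysine. All cells were grown in FBS-LIF medium before 5000000 of them were placed under the skin of 8-week-old male NOD-PrkdcEM1 mice, a strain without functional T and B cells, and the tumours were taken at day 21. RNA of 3 teratomas per group was sequenced, 12 libraries in all, and whether each cell line was 1 clone is not given in the sources used here. Nothing in the labels pairs tumours by animal, so every p-value measures a difference against the spread between tumours within the groups. Differences between the cell lines other than the construct cannot be told apart from it, and no p-value measures them.

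Total counts per library ran from 16957677 to 18546100, and a member had between 34 and 2019 counts in a library. Values are given as CPM, read counts set to one library size after scaling by the trimmed mean of M values (TMM), and the error is the SD over the 3 libraries of a group. Transcript of Dnmt3l checks the labels. It averaged 194 ± 27.0 CPM (SD, n = 3) for WT and 34.7 ± 8.52 for K412R, but 3.52 ± 3.73 for ET and 1.17 ± 0.665 where the label is K238R. Dnmt3l was lower in K412R than in WT (log2 difference −2.49; edgeR, adjusted p = 0.0367). The libraries labelled K238R did not exceed the empty-vector libraries in this transcript, which goes against their label, and every direction given for them below is that of libraries so labelled, not of a shown substitution. In the members ET replicate 2 stood apart from the other ET libraries, and results that rest on it are given with and without it. The study's text also names an outlier among its control teratomas in a principal component analysis of the whole transcriptome, without saying which library it was.

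Endothelial cells form the inner wall of every blood vessel and are held together by adherens and tight junctions. They grow in response to vascular endothelial growth factor (VEGF) through receptors on their surface, and angiopoietins, acting on another receptor family, steady the new vessel. A growing tumour draws in vessels from its host, and the endothelium of a teratoma may also arise from the injected cells. Host and graft were both mouse, so the origin of these transcripts cannot be told apart here. In bulk tissue, fewer endothelial cells and less RNA per cell cannot be told apart either.

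Of the 10 members, 6 had a promoter in the RefSeq sequences used here (GRCm38.p6), with 8 promoters among them because Erg has 3. Pecam1, Cdh5, Vwf and Plvap had no entry. The 250 bases before the start site are shown for the 4 members whose levels the comparisons below turn on most, or which stood against the rest, 5′ to 3′ on the gene's own strand. Capitals mark each CG, the dinucleotide at which the Dnmt3 enzymes methylate DNA. Methylation itself was not among the measurements used here.
Cldn5, chr16:18776597-18776846, plus strand: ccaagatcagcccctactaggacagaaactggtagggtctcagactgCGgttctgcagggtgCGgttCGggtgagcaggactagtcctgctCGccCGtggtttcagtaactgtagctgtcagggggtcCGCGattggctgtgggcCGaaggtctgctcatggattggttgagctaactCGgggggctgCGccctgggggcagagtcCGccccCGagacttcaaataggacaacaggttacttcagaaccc
Tek, chr4:94739039-94739288, plus strand: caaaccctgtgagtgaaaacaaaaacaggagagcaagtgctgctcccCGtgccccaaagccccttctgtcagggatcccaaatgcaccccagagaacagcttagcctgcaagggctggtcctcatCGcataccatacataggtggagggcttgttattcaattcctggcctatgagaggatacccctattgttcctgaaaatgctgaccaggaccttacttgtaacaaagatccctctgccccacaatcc
Kdr, chr5:75978456-75978705, minus strand: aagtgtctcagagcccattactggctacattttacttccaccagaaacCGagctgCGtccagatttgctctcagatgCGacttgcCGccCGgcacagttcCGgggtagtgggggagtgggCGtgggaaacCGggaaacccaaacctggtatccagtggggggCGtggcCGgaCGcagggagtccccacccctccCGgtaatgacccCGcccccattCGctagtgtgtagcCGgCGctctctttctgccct
Flt1, chr5:147726012-147726261, minus strand: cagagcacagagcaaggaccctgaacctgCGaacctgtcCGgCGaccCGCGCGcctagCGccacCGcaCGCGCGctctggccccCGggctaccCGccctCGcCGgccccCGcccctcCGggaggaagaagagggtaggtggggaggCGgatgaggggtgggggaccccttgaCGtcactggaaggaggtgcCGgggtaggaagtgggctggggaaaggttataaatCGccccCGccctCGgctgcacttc

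These 4 stretches differed widely in CG content. The Flt1 stretch held 23 CG, the Kdr stretch 16, the Cldn5 stretch 12 and the Tek stretch 2, against a median of 6 over the same 250 bases of the 32851 promoters given. Members with much and with little CG are thus both among those whose group means differed most below, and nothing more can be read from 4 sequences. Exact matches to 2 forms of the site bound by ETS factors such as Erg were searched on both strands of the 300-base promoters. These promoters also hold the first 50 bases of the transcript. Shorter and other forms of the site were not searched, so a promoter without these forms may still hold one. The form CCGGAAG was in 0 of the 8 member promoters and in 8.86% of all promoters. The form CAGGAAG was in 2 of the 8, that of Emcn and 1 of the 3 of Erg, and in 13.3% of all promoters, and 20.9% of all held either form.

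Set per kilobase of exon, the junction genes Cdh5 and Pecam1 were the most abundant members, with Plvap level with Pecam1. Over the 12 libraries the mean level was 22.0 CPM per kilobase for Cdh5, 11.2 for Pecam1 and 11 for Plvap. Kdr (5.80), Flt1 (4.98), Cldn5 (4.40) and Emcn (4.05) formed a middle group. Erg (2.06), Vwf (1.83) and Tek (1.38) were the least abundant on this scale. Neighbours in this order were not separated: the library ranges of Pecam1 (8.86 to 15.1) and Plvap (7.44 to 15.6) overlapped over most of their length, as did those of Kdr (4.37 to 8.48) and Flt1 (3.68 to 6.97). Cdh5 was the exception, since its lowest library (15.1 CPM per kilobase) was level with the highest of Pecam1. Exon lengths were taken from GENCODE M21 on GRCm38, which is not the build named for these files, so the order is approximate.

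**Figure D1:**
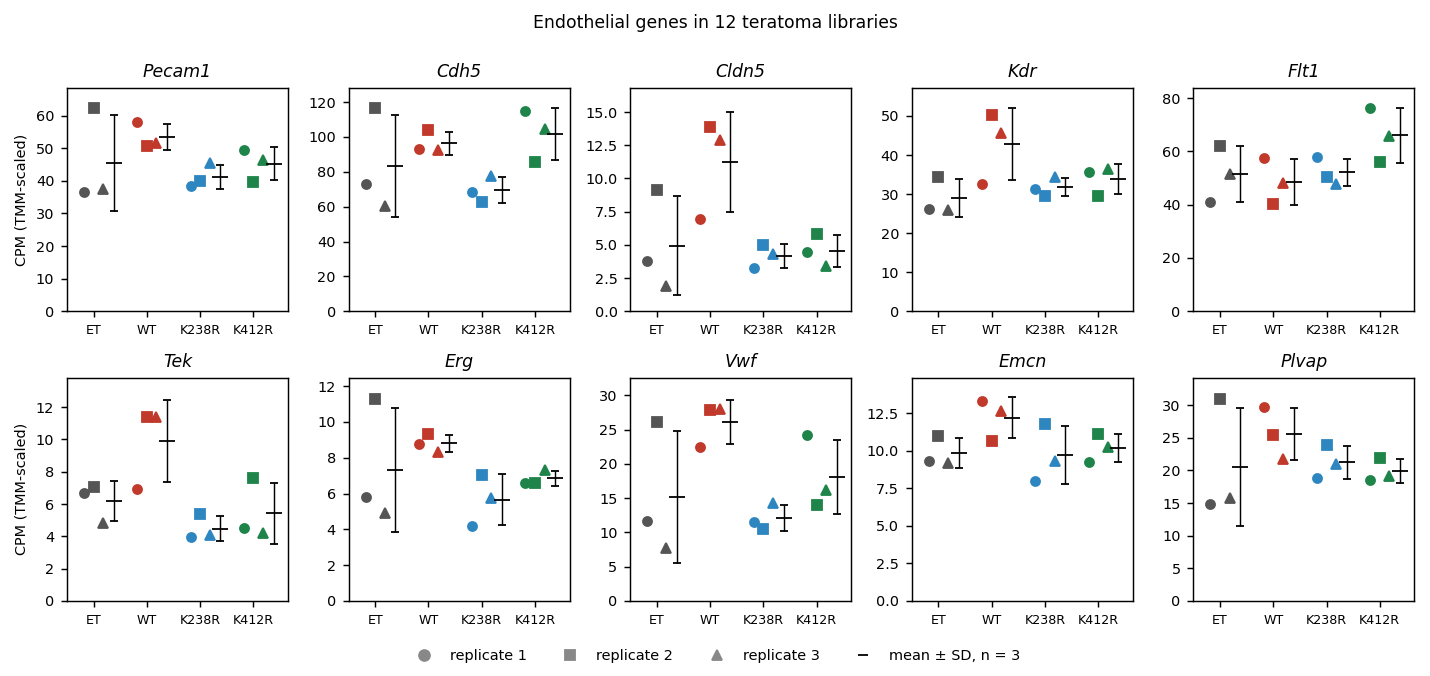
CPM (TMM-scaled, linear axis from 0) of the 10 endothelial genes in the 3 libraries of each group, with marker shapes for replicate number and black bars for mean ± SD (n = 3). ET replicate 2 (grey square) is the highest of the 12 libraries for Pecam1, Cdh5, Erg and Plvap, and WT replicates 2 and 3 are the highest for Kdr, Tek, Vwf and Cldn5.

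The first comparison asked whether wild-type Dnmt3L went with a different level of vessel genes than the empty vector. Group means of 9 of the 10 members were higher in WT, as were those of 9054 of all 18405 genes tested. The median log2 difference of the members was 0.32, against −0.0073 over all genes. No member passed an adjusted p of 0.05. The 4 with the lowest p-values were Cldn5, Vwf, Tek and Kdr, which were 2.28, 1.72, 1.60 and 1.48 times as high in WT. In this fit 0.0489% of all genes passed (9 of 18405), so a count of 0 among 10 is close to the background. At an unadjusted p under 0.05 in edgeR the members numbered 4, all higher in WT, where 14% of all genes were higher at that level and 29.1% differed in either direction. DESeq2 called 1 member, Kdr (adjusted p = 0.0308), among 10.4% of all genes. In 0 of the 10 members did all WT libraries lie on one side of all ET libraries, as they did for 20.7% of all genes.

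Among the junction genes, Cldn5, the claudin of endothelial tight junctions and a hallmark of brain vessels, had the widest gap. Its levels were 3.76, 9.12 and 1.92 CPM in ET replicates 1 to 3 and 6.95, 13.9 and 12.9 CPM in WT. ET replicate 2 exceeded WT replicate 1, so the groups overlapped, while the other ET libraries lay below every WT library. The log2 fold change was 1.19 ± 0.46 (SE; edgeR quasi-likelihood test, Benjamini-Hochberg adjusted p = 0.131). Cdh5, the cadherin of endothelial adherens junctions, ran at 72.9, 116 and 60.4 CPM in ET and 92.9, 104 and 92.2 CPM in WT. Pecam1, an adhesion molecule of endothelial contacts that blood cells also carry, ran at 36.6, 62.4 and 37.3 CPM in ET and 58.0, 50.8 and 51.5 CPM in WT. For both of these genes the WT libraries fell in the gap between ET replicate 2 and the other ET libraries, and the log2 differences were 0.21 ± 0.20 and 0.23 ± 0.18 (SE).

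The receptors did not move alike. Kdr, the main signalling receptor for VEGF, was at 26.3, 34.5 and 25.9 CPM in ET and at 32.6, 50.2 and 45.7 CPM in WT, a log2 difference of 0.57 ± 0.17 (SE; edgeR, adjusted p = 0.108). WT replicate 1 lay within the ET range, and the other WT libraries were the highest of the 12. Tek, the receptor for angiopoietins, was at 6.69, 7.07 and 4.80 CPM in ET and at 6.95, 11.4 and 11.4 CPM in WT (log2 difference 0.68 ± 0.27 SE; edgeR, adjusted p = 0.139). Here too WT replicate 1 stood with the ET libraries. Flt1, a VEGF receptor that largely binds the ligand without strong signalling, was at 40.9, 61.9 and 51.6 CPM in ET and at 57.4, 40.3 and 48.1 CPM in WT. It was the 1 member with a lower mean in WT, with a log2 difference of −0.081 ± 0.17 (SE), and the ranges of its groups were nearly the same.

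Erg, a transcription factor of the ETS family that keeps endothelial cells differentiated, was at 5.79, 11.3 and 4.91 CPM in ET and at 8.79, 9.30 and 8.34 CPM in WT. Vwf, the glycoprotein that tethers platelets and that megakaryocytes also make, was at 11.7, 26.1 and 7.79 CPM in ET and at 22.4, 27.8 and 28.0 CPM in WT, with a log2 difference of 0.78 ± 0.36 (SE; edgeR, adjusted p = 0.170). Emcn, a sialomucin of capillary and venous endothelium, was at 9.33, 11 and 9.20 CPM in ET and at 13.3, 10.7 and 12.6 CPM in WT. Plvap, which builds the diaphragms of endothelial fenestrae and caveolae, was at 14.8, 31.0 and 15.7 CPM in ET and at 29.7, 25.3 and 21.8 CPM in WT. In all 4 genes a single ET library, replicate 2, reached into or above the WT range.

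In 7 of the 10 members ET had the largest coefficient of variation of the 4 groups, and the exceptions were Kdr, Tek and Emcn. That value within ET was 75.8% for Cldn5, 63.4% for Vwf, 47.1% for Erg and 44.3% for Plvap, against 33.4%, 12.2%, 5.44% and 15.4% within WT. ET replicate 2 was above the median of the 12 libraries for 10 of 10 members and among the 4 highest libraries for 8, a place it took for 32.8% of all genes. ET replicates 1 and 3 were each among the 4 lowest libraries for 8 members. Apart from the 32.8%, these counts were not taken over all genes, so they are not shown to be particular to the members. Over all genes, the chi-square per degree of freedom, a measure of how far 2 libraries differ, was 52.6 between ET replicates 2 and 3. It was 25.9 between ET replicates 1 and 2, 14.3 between 1 and 3, and 10.5 to 31.8 within the other groups. The 10 members added up to 229, 371 and 220 CPM in ET, 329, 344 and 333 CPM in WT, 246, 246 and 264 CPM in the K238R-labelled libraries, and 344, 278 and 314 CPM in K412R.

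Without ET replicate 2 the comparison of WT with ET read differently, for the members and for all genes. The fit then called 7 members higher in WT among 16.1% of all genes called higher and 30.8% called in either direction. Cldn5 had a log2 difference of 1.99 (edgeR, adjusted p = 0.00639), Vwf of 1.43 (edgeR, adjusted p = 0.00533) and Plvap of 0.76 (edgeR, adjusted p = 0.00751). Pecam1, Cdh5, Kdr and Erg were also called, with log2 differences of 0.54, 0.54, 0.73 and 0.73 and edgeR adjusted p-values from 0.00931 to 0.0250. Tek (0.80; edgeR, adjusted p = 0.0670), Emcn (0.41; edgeR, adjusted p = 0.102) and Flt1 (0.083; edgeR, adjusted p = 0.733) were not. In 9 of the 10 members, all but Flt1, the remaining ET libraries lay below all 3 WT libraries, as they did for 29% of all genes, and 59.1% of all genes did not overlap in either direction. With WT replicate 1 also left out, 8 members were called higher, Tek now among them, against 37.4% of all genes called in either direction. For any difference among the 4 groups, 7 members were called without ET replicate 2, beside 18.7% of all genes, and 7 without both libraries, beside 29.6%. Leaving out a library after its values were seen is a choice made on these data, and these counts carry that limit.

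**Figure D2:**
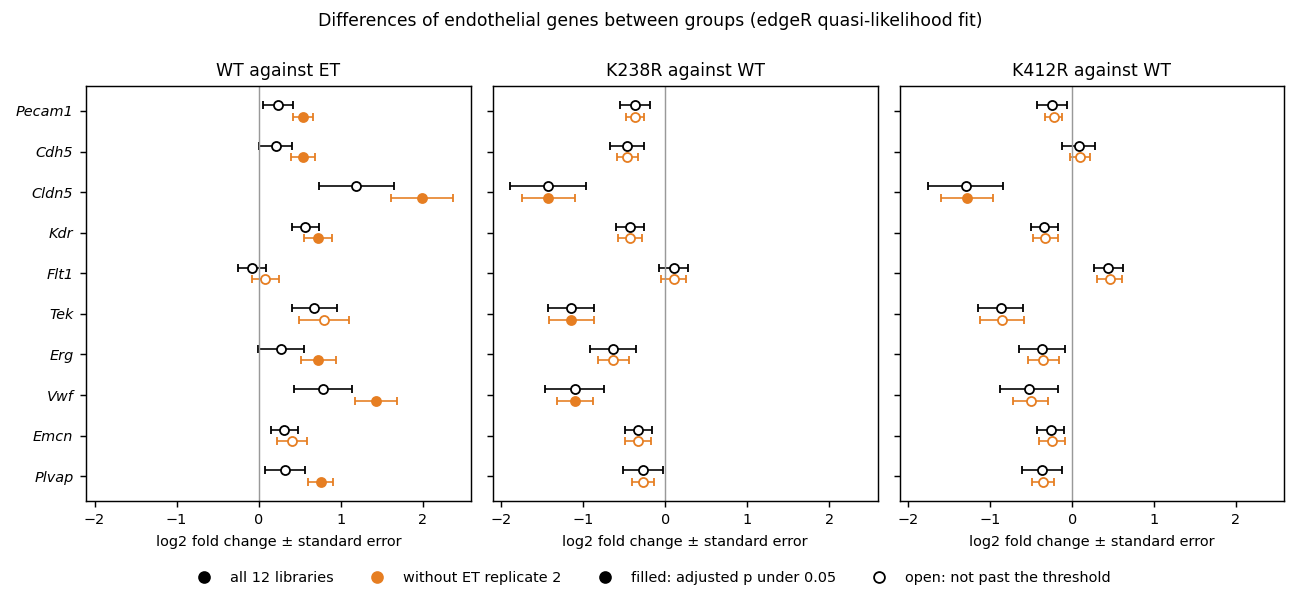
Log2 fold changes ± standard error of the 10 endothelial genes in the 3 comparisons with WT, from the edgeR fit to all 12 libraries (black) and without ET replicate 2 (orange). Filled points passed an adjusted p of 0.05; there are 0 filled black points, and the orange points shift to the right in the comparison of WT with ET only, where 7 are filled.

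The libraries labelled K238R were set against WT to ask whether the substitution at K238 went with other levels of these genes, a question the Dnmt3l check above leaves tied to the absence of the transcript. This comparison and the next share the WT libraries with the first. Means of 9 of the 10 members were lower than in WT, with a median log2 difference of −0.45 against 0.00078 over all genes. No member passed an adjusted p of 0.05, where 0.223% of all genes did. In edgeR 6 members had an unadjusted p under 0.05, all of them lower, against 9.61% of all genes lower at that level and 17.5% in either direction. DESeq2 called 3 members lower, Tek, Vwf and Cldn5 (adjusted p = 0.00743, 0.0485 and 0.0480), among 4.27% of all genes.

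In 6 members all 3 libraries labelled K238R lay below all 3 WT libraries, as they did for 12.5% of all genes. These were Pecam1, Cdh5, Cldn5, Tek, Erg and Vwf. Cldn5 stood at 3.23, 4.98 and 4.32 CPM in the K238R-labelled libraries, a log2 difference of −1.43 ± 0.46 (SE; edgeR, adjusted p = 0.167). Tek stood at 3.97, 5.37 and 4.05 CPM, with a log2 difference of −1.15 ± 0.28 (SE; edgeR, adjusted p = 0.0999). Vwf stood at 11.5, 10.5 and 14.3 CPM, with a log2 difference of −1.11 ± 0.36 (SE; edgeR, adjusted p = 0.169). These 3 genes stood at 0.371, 0.451 and 0.465 times their WT level.

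The other junction genes and Erg differed less. Cdh5 was at 68.3, 62.7 and 77.8 CPM in the K238R-labelled libraries and Pecam1 at 38.5, 39.8 and 45.4 CPM, with log2 differences of −0.47 ± 0.20 and −0.37 ± 0.18 (SE). Erg was at 4.19, 7.05 and 5.74 CPM, a log2 difference of −0.64 ± 0.28 (SE; edgeR, adjusted p = 0.271). Kdr, at 31.4, 29.6 and 34.3 CPM, overlapped WT through WT replicate 1. Emcn, at 8.0, 11.8 and 9.32 CPM, and Plvap, at 18.9, 23.9 and 21.0 CPM, overlapped WT as well. Flt1 was again the exception, with 57.9, 50.6 and 47.9 CPM in the K238R-labelled libraries and a log2 difference of 0.10 ± 0.17 (SE) from WT. Without ET replicate 2, which enters this comparison through the shared estimate of spread and the filter (18775 genes tested), Tek, Vwf and Cldn5 were called lower (edgeR, adjusted p = 0.0387, 0.0187 and 0.0315), among 2.56% of all genes called lower and 4.32% called in either direction. With WT replicate 1 also left out, 5 were called, beside 11.6% of all genes.

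The K412R libraries, which did hold Dnmt3l transcript, were compared with WT in the same way. Means of 8 of the 10 members were lower in K412R, with a median log2 difference of −0.35 against 0.0097 over all genes. No member passed an adjusted p of 0.05, where 2.04% of all genes did. In edgeR 3 members had an unadjusted p under 0.05, against 22.8% of all genes. Cldn5 and Tek were lower, like 12.5% of all genes, and Flt1 was higher, like 10.2%. DESeq2 called 1 member, Tek (adjusted p = 0.0394), among 9.1% of all genes.

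Cldn5 was at 4.44, 5.83 and 3.44 CPM in K412R, below every WT library, with a log2 difference of −1.30 ± 0.46 (SE; edgeR, adjusted p = 0.132). Tek was at 4.50, 7.59 and 4.19 CPM, a log2 difference of −0.87 ± 0.28 (SE; edgeR, adjusted p = 0.104), and K412R replicate 2 lay above WT replicate 1. Flt1 was at 76.4, 55.8 and 65.8 CPM, its highest group, with a log2 difference of 0.44 ± 0.17 (SE; edgeR, adjusted p = 0.162). The lowest K412R library for Flt1 was still within the WT range.

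For the other members the unadjusted p was above 0.05. Cdh5 was at 115, 85.8 and 104 CPM in K412R, a log2 difference of 0.079 ± 0.20 (SE), and the groups overlapped. Pecam1, at 49.6, 39.7 and 46.4 CPM, and Erg, at 6.61, 6.59 and 7.31 CPM, lay below all WT libraries without passing the test. Together with Cldn5 that made 3 members whose K412R libraries lay entirely below WT, beside 16.8% of all genes, and 32.3% of all genes did not overlap in either direction. Vwf, at 24.3, 14.0 and 16.2 CPM, overlapped WT, with a log2 difference of −0.52 ± 0.35 (SE). Kdr, at 35.6, 29.5 and 36.5 CPM, overlapped WT as well. Emcn (9.23, 11.1 and 10.3 CPM) and Plvap (18.6, 21.9 and 19.2 CPM) overlapped WT too. Without ET replicate 2, Cldn5 was called lower in K412R (edgeR, adjusted p = 0.0329), 1 of 10 members beside 8.13% of all genes called and 4.01% called lower. With WT replicate 1 also left out, 4 were called, beside 18% of all genes called in either direction. Kdr, Tek and Cldn5 were lower in K412R, and Flt1 was higher (log2 difference 0.57; edgeR, adjusted p = 0.0274).

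Set against ET, members of the K238R-labelled and K412R libraries did not pass the test. In both comparisons 0 of 10 members had an adjusted p under 0.05, where 0% of all genes passed. The edgeR fit also gave 0 of 10 at an unadjusted p under 0.05 in both, beside 5.61% of all genes for the K238R-labelled libraries and 7.91% for K412R. DESeq2 called 0 members, beside 0.0761% and 0.484% of all genes. In 0 members did the libraries lie wholly on one side, beside 9.35% and 11.3%. Without ET replicate 2 the count stayed at 0 (beside 0% and 1.51% of all genes). With WT replicate 1 also left out it was 0 for the K238R-labelled libraries (0.0107%) and 1, Cdh5, for K412R (2.46%).

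The intervals of these differences were wide for some genes. For Cldn5 the log2 difference from ET was −0.24 in the K238R-labelled libraries (95% interval −1.15 to 0.68) and −0.11 in K412R (−1.02 to 0.80). For Kdr it was 0.14 (−0.19 to 0.46) and 0.23 (−0.098 to 0.56). For Cdh5 it was −0.26 (−0.66 to 0.14) and 0.29 (−0.11 to 0.69), so Cdh5 lay on opposite sides of ET in these groups without passing the test in either.

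Over the 4 groups together, no member passed an adjusted p of 0.05 for any difference, where 0.168% of all genes passed. In edgeR 4 members had an unadjusted p under 0.05, beside 22.2% of all genes, and DESeq2 called Tek and Cldn5, beside 10.9%. Tek had the lowest p of the members (edgeR, adjusted p = 0.136), and its groups accounted for 66.3% of the variance of its log2 CPM. For Plvap the groups accounted for 24.3%, the lowest share. Groups this small account for part of the variance even where they do not differ. The share over all genes is not given here, so these values do not measure an effect of the constructs.

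The members went together across libraries to different degrees. Over the 45 pairs the median Pearson r of log2 CPM was 0.618 (n = 12 libraries, which share 4 groups and the position of ET replicate 2), and 28 pairs were above 0.5. After group means were taken out the median was 0.465. The highest value was 0.888, between Cdh5 and Vwf, and the lowest was −0.502, between Flt1 and Tek. Flt1 had a median r of 0.032 with the other members, while each of the other 9 had a median above 0.5. With group means taken out Flt1 did not stand apart, since its median was 0.238, that of Tek 0.231 and that of Emcn 0.301. Flt1 is also made by trophoblast cells, and the 11 trophoblast markers listed summed to 1.47 to 2.28 CPM in WT, 2.63 to 7.67 in ET, 6.05 to 26.8 in the K238R-labelled libraries and 4.44 to 9.04 in K412R. Their part in the Flt1 values was not tested.

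Ratios of counts within a library do not depend on how libraries are scaled, and 5 were taken after the values were seen. The Flt1 to Kdr ratio was 1.55, 1.79 and 1.99 in ET and 1.76, 0.802 and 1.05 in WT. It was 1.85, 1.71 and 1.40 in the K238R-labelled libraries and 2.15, 1.90 and 1.81 in K412R. WT replicates 2 and 3 were thus the lowest of the 12, and WT replicate 1 sat among the other groups. The Plvap to Cldn5 ratio, which sets a gene of fenestrated vessels against a gene of tight-junction vessels, was 3.93, 3.40 and 8.21 in ET and 4.27, 1.82 and 1.69 in WT. It was 4.80 to 5.84 in the K238R-labelled libraries and 3.76 to 5.58 in K412R, so WT replicates 2 and 3 were again the lowest and WT replicate 1 was not. Cldn5 to Cdh5 was highest in WT replicates 2 and 3 (0.134 and 0.14), with WT replicate 1 at 0.0749 and the other groups between 0.0317 and 0.0794. Kdr to Pecam1 was also highest in WT replicates 2 and 3 (0.989 and 0.888), with WT replicate 1 at 0.562 and the others between 0.553 and 0.814. Flt1 to Cdh5 was lowest in WT replicates 2 and 3 too (0.388 and 0.522), with WT replicate 1 at 0.618. It set WT apart less, since the other groups ran from 0.531 to 0.853 and WT replicate 3 lay only just below them.

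**Figure D3:**
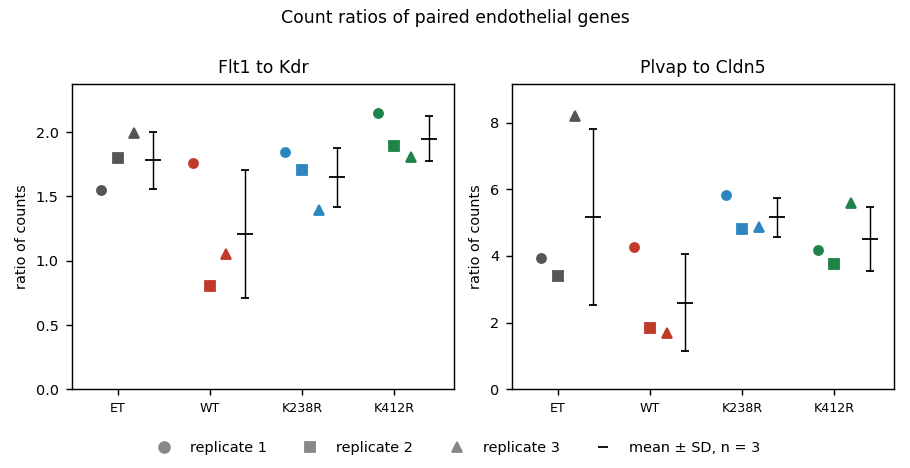
Ratio of Flt1 to Kdr counts (left) and of Plvap to Cldn5 counts (right) in each library (linear axes from 0), with marker shapes for replicate number and black bars for mean ± SD (n = 3). WT replicates 2 and 3 are the lowest libraries in both panels, at 0.802 and 1.05 on the left and 1.82 and 1.69 on the right.

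A further 24 genes of blood vessel endothelium, from Tie1 and Esam to Cd93 and Nos3, were read as a wider list, chosen like the members with earlier results known. All 24 were tested. In WT against ET 23 of them had a higher mean, with a median log2 difference of 0.41 against −0.0073 over all genes, and 0 passed an adjusted p of 0.05 in edgeR. At an unadjusted p under 0.05 there were 10, all higher in WT, beside 14% of all genes higher and 29.1% in either direction. The most abundant were Cd93, a surface lectin of endothelium (0.24 ± 0.22, log2, SE), Cd34, a sialomucin of endothelium and blood progenitors (0.41 ± 0.16), and Eng, a TGF-β co-receptor (0.24 ± 0.21). In 6 of the 24 the groups did not overlap, beside 10.2% of all genes higher in that way. Without ET replicate 2, 16 were called higher in WT, beside 16.1% of all genes.

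Set against WT, the wider list stood lower in both other groups. In the K238R-labelled libraries 22 of the 24 had a lower mean (median log2 difference −0.55), 14 had an unadjusted p under 0.05, all lower (9.61% of all genes were lower at that level), and 17 lay entirely below WT, beside 12.5% of all genes. In K412R 22 of 24 had a lower mean (median −0.33), 5 were lower and 1 was higher at an unadjusted p under 0.05 (12.5% and 10.2% of all genes), and 11 lay entirely below WT, beside 16.8%. With all libraries, no gene of the list passed an adjusted p of 0.05 in edgeR in either comparison. Without ET replicate 2, edgeR called 6 of the 24 lower in the K238R-labelled libraries and 2 lower in K412R, beside 2.56% and 4.01% of all genes called lower. Tie1, a receptor that works beside Tek, had its highest mean in WT, 24 ± 3.84 CPM (SD, n = 3), followed by K412R (17.2 ± 1.84), ET (14.5 ± 7.73) and the K238R-labelled libraries (12.4 ± 2.87). Sox17, a transcription factor of arterial endothelium and of endoderm, was the 1 gene at the unadjusted level that was higher in K412R, with a log2 difference of 0.55 (edgeR, adjusted p = 0.109).

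**Figure D4:**
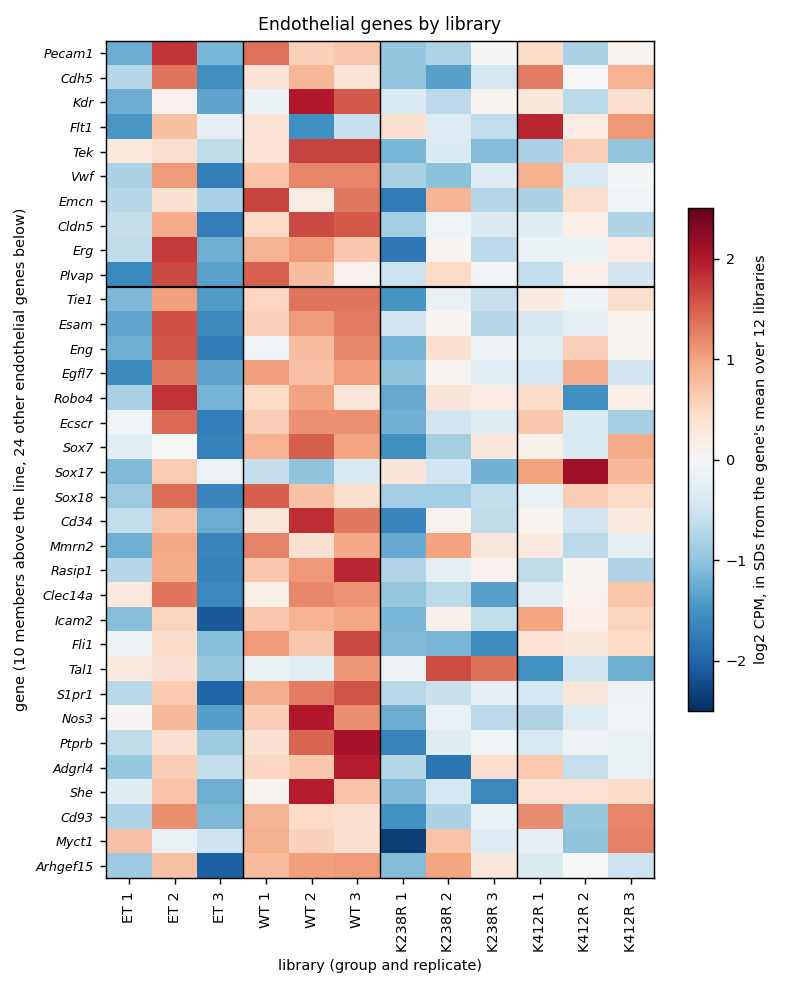
Log2 CPM of the 10 members (above the black line) and 24 other endothelial genes (below it) in each of the 12 libraries, in SDs from the gene's mean over the libraries (red higher, blue lower). ET replicate 2 and the WT libraries are red for most genes, ET replicates 1 and 3 and K238R replicate 1 are blue for most, and Flt1, Sox17 and Tal1 follow the others least.

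With all 12 libraries, the signals and receptors that guide vessel growth had medians near that of all genes. Of 21 angiogenic genes, 10 had a higher and 11 a lower mean in WT than in ET, with a median log2 difference of −0.018. In edgeR 0 passed an adjusted p of 0.05, and 4 had an unadjusted p under 0.05, beside 29.1% of all genes. The medians were −0.040 for the K238R-labelled libraries against WT and 0.064 for K412R against WT. Vegfa, the main ligand of Kdr, had log2 differences of 0.29 ± 0.33, −0.0017 ± 0.33 and 0.035 ± 0.33 (SE) in these 3 comparisons. Nrp2, a VEGF and semaphorin co-receptor, was at −0.38 ± 0.20 in WT against ET and 0.63 ± 0.20 in the K238R-labelled libraries against WT (edgeR, adjusted p = 0.212 and 0.157). Notch1, the receptor through which endothelial tip cells restrain their neighbours, was at −0.30 ± 0.18 and 0.30 ± 0.18 in the same comparisons. Without ET replicate 2, the median of the 21 genes in WT against ET was 0.31. There 5 were called in edgeR, 4 higher and 1 lower, beside 30.8% of all genes. Against WT, 2 were then called in the K238R-labelled libraries and 0 in K412R, beside 4.32% and 8.13%. Of the 9 hypoxia response genes, 0 passed in any of the 3 comparisons, with or without ET replicate 2. With all libraries 0, 1 and 1 had an unadjusted p under 0.05 in edgeR, beside 29.1%, 17.5% and 22.8% of all genes. The medians of this list were −0.049, 0.13 and 0.19. Ldha and Pgk1, enzymes of glycolysis, stood at −0.25 ± 0.19 and −0.13 ± 0.20 in WT against ET, and Bnip3, a mitophagy receptor, at 0.28 ± 0.33 (log2, SE). The hypoxia genes summed to 1124, 642 and 740.3 CPM in WT replicates 1 to 3, 707 to 1090.2 in ET, 944 to 982 in the K238R-labelled libraries and 808 to 1192 in K412R. WT replicate 1, which stood with the other groups for Kdr, Tek and the count ratios, thus stood apart from the other WT libraries in this sum too, and the part of hypoxia in the members' values was not tested.

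Cells that wrap vessels were read from 14 pericyte and smooth muscle genes. Their median log2 difference was 0.19 in WT against ET, −0.56 in the K238R-labelled libraries against WT and −0.40 in K412R against WT. Vtn, the matrix protein vitronectin, which liver cells also make in quantity, was the 1 gene of the list called with all 12 libraries. Over all genes, 0.0489%, 0.223% and 2.04% were called in these comparisons. Vtn was higher than in WT in the K238R-labelled libraries (log2 difference 1.48; edgeR, adjusted p = 0.0432) and in K412R (1.83; edgeR, adjusted p = 0.00913), against the direction of the list's median. Rgs5, a signalling regulator typical of pericytes, lay below all WT libraries in both groups (−0.66 and −0.77; edgeR, adjusted p = 0.276 and 0.162). Without ET replicate 2 the list's median in WT against ET was 0.48. There 6 of the 14 were called in edgeR, 5 of them higher, beside 30.8% of all genes. Against WT, 2 were then called in the K238R-labelled libraries and 3 in K412R, beside 4.32% and 8.13%.

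Specialised endothelium was read from 2 further lists. Of 13 genes of the brain vessel barrier, several of which neurons and other cells also express, 11 had a higher mean in WT than in ET (median log2 difference 0.39). The medians against WT were −0.38 in the K238R-labelled libraries and −0.019 in K412R, and 0 genes passed an adjusted p of 0.05 in the 3 comparisons, with 5 (4 higher), 6 (all lower) and 5 (4 lower) at an unadjusted p under 0.05 in edgeR, beside 29.1%, 17.5% and 22.8% of all genes. Slc7a5, a large amino acid transporter, had the lowest adjusted p in WT against ET (0.81 ± 0.14 log2, SE; edgeR, adjusted p = 0.0807). Slc2a1, the glucose transporter of barrier endothelium and of many growing cells, went the other way (−0.76 ± 0.32), and Spock2, a matrix proteoglycan, stood at 0.66 ± 0.26. Of the 6 lymphatic genes 5 were tested, and 0 passed with all libraries. At an unadjusted p under 0.05 in edgeR there were 3, 2 and 0, beside 29.1%, 17.5% and 22.8% of all genes. Prox1, the transcription factor of lymphatic identity, which neural cells also express, had a log2 difference of −0.78 ± 0.21 (SE) in WT against ET (edgeR, adjusted p = 0.103). Reln, a secreted matrix protein of lymphatic vessels and neurons, was at 0.77 ± 0.27, and Pdpn, a mucin of lymphatic endothelium and other epithelia, at −0.27 ± 0.15. The list's medians were −0.27 in WT against ET, −0.23 in the K238R-labelled libraries against WT and 0.31 in K412R against WT. Without ET replicate 2, edgeR called 4 of the 5 lymphatic genes in WT against ET, 2 higher and 2 lower. It called 4 of the 13 barrier genes there, all higher, beside 30.8% of all genes. Against WT it then called 0 lymphatic genes in either group. Barrier genes called were 2 in the K238R-labelled libraries and 3 in K412R, beside 4.32% and 8.13%.

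Blood in the tumours, whether within vessels or outside them, was read from 11 erythroid genes, of which 7 were tested. They summed to 954 to 1253 CPM in WT, 424 to 776 in ET, 295 to 817 in the K238R-labelled libraries and 231 to 751 in K412R, so the WT libraries lay above all others. All 7 had a higher mean in WT than in ET (median log2 difference 1.06), and 5 of them did not overlap, beside 10.2% of all genes. In edgeR 0 passed an adjusted p of 0.05, and 3 were higher at an unadjusted p under 0.05, beside 14% of all genes. Their medians against WT were −1.0 in the K238R-labelled libraries and −1.22 in K412R, again with 0 passing (2 and 4 lower at the unadjusted level, beside 9.61% and 12.5% of all genes). The most abundant was Hba-a1, an adult alpha globin, at 0.83 ± 0.44 (log2, SE) in WT against ET, followed by the beta globins Hbb-bs (0.84 ± 0.41) and Hbb-bt (1.10 ± 0.43), which are near-identical copies. None of the 11 was at 0 in all libraries. Of the 6 erythroid genes with a mean of at least 1 CPM, 2 had an r above 0.5 with the members, measured as described for the most alike genes below. The part of blood in the members' values was not tested.

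White blood cells and platelets were read as other cells that carry Pecam1 or Vwf. The 13 leukocyte markers summed to 200.4 to 270 CPM in ET, 213 to 288 in WT, 176 to 211 in the K238R-labelled libraries and 233 to 278 in K412R, with median log2 differences of 0.064 in WT against ET, −0.34 in the K238R-labelled libraries against WT and 0.084 in K412R against WT. The complement genes C1qb and C1qc of macrophages, with 0.06 ± 0.18 and −0.11 ± 0.18 (log2, SE) in WT against ET, and Laptm5, a lysosomal protein of blood cells, with 0.20 ± 0.16, were the most abundant. Of the 9 platelet and megakaryocyte genes 5 were tested, and the list summed to 14.2 to 24.9 CPM in ET, 18.7 to 22.3 in WT, 15.4 to 17.7 in the K238R-labelled libraries and 18.2 to 21.8 in K412R. Their medians were 0.44, −0.31 and 0.12 in the same order, and the most abundant, the integrin subunit Itgb3, the platelet receptor subunit Gp1bb and the chemokine Pf4, stood at −0.010 ± 0.23, 0.44 ± 0.36 and −0.11 ± 0.38 in WT against ET. No gene of these lists passed an adjusted p of 0.05 in edgeR with all libraries. At an unadjusted p under 0.05 there were 0 of either list in WT against ET, beside 29.1% of all genes. Without ET replicate 2, 1 leukocyte gene was called higher in WT than in ET, beside 16.1% of all genes. In the K238R-labelled libraries 2 were then called lower than in WT, beside 2.56%. In the K238R-labelled libraries the leukocyte sums lay below all WT sums, and 13 of 13 leukocyte genes had a lower mean than in WT. Of these, 2, Ptprc (−0.77 ± 0.19) and Laptm5 (−0.49 ± 0.16; log2, SE), had an unadjusted p under 0.05 and lay below all WT libraries. Over all genes, 9.61% were lower at that level and 12.5% lay below all WT libraries. This moved the same way as Pecam1 there, and the part of these cells in the Vwf and Pecam1 values was not tested.

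**Figure D5:**
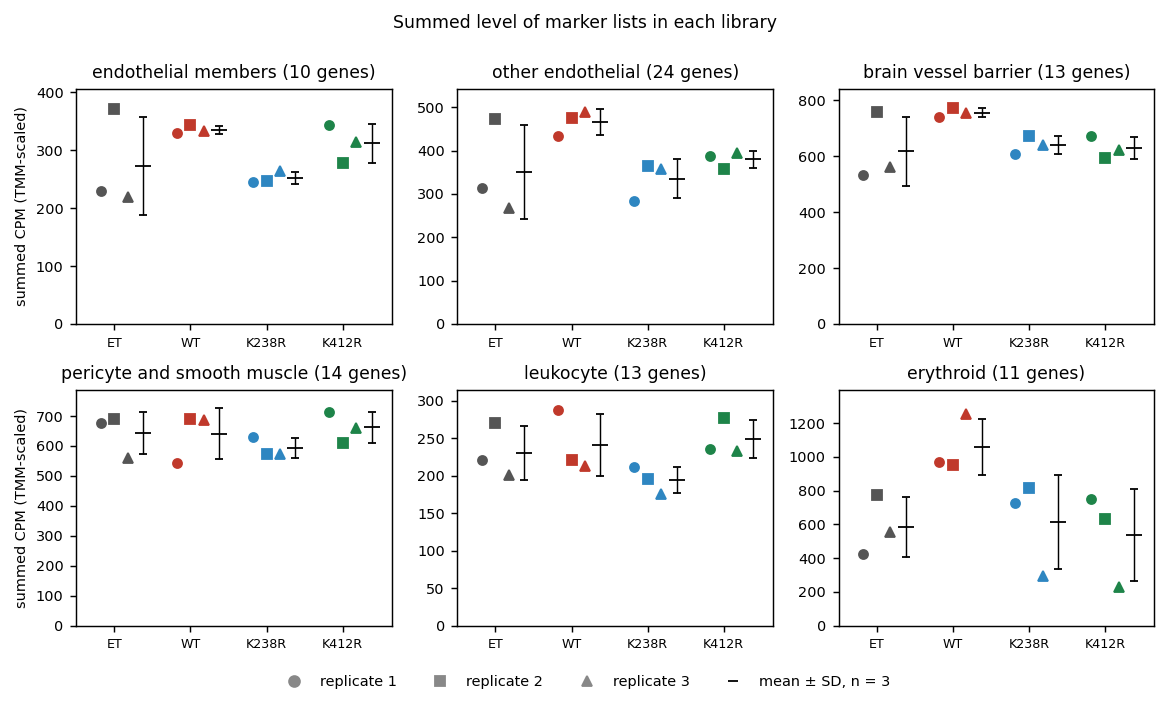
Summed CPM (linear axes from 0) of 6 marker lists in each library, with marker shapes for replicate number and black bars for mean ± SD (n = 3). In the erythroid panel the 3 WT libraries, from 954 to 1253 CPM, lie above all others, and in both endothelial panels ET replicate 2 lies with the WT libraries.

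With all 12 libraries, a single gene was called in each of 3 lists of other teratoma tissues. Over all genes 0.0489% were called in WT against ET, 0.223% in the K238R-labelled libraries against WT and 2.04% in K412R against WT. Cnmd, a cartilage protein that inhibits vessel growth, was lower in WT than in ET (log2 difference −2.02 ± 0.26 SE; edgeR, adjusted p = 0.0293). It was higher than in WT in the K238R-labelled libraries (2.05; edgeR, adjusted p = 0.0153) and in K412R (2.36; edgeR, adjusted p = 0.00435). It was the 1 called gene of 8 cartilage genes tested in each of these comparisons. Folr1, a folate receptor of choroid plexus and other epithelia, was higher than in WT in the K238R-labelled libraries (1.76; edgeR, adjusted p = 0.0219) and in K412R (2.09; edgeR, adjusted p = 0.00435), the 1 called gene of the 10 choroid plexus genes. The medians of the cartilage list were −0.17, −0.060 and 0.52, and those of the choroid plexus list 0.30, −0.45 and −0.15, in WT against ET, the K238R-labelled libraries against WT and K412R against WT. Of 7 trophoblast genes tested, Prl3b1, a placental lactogen, was higher in K412R than in WT (4.51; edgeR, adjusted p = 0.0454), and the list's medians were −2.34, 3.37 and 1.72. Prl3b1 had 2 counts over all WT libraries and 54 over those of K412R. Syna, whose values are these medians, had 6 counts in WT, so the size of these log2 values rests on very low WT counts. Without ET replicate 2, edgeR called 3 of 9 cartilage genes in WT against ET, all lower. It called 4 of 10 choroid plexus genes there, 2 higher and 2 lower, and 2 of 7 trophoblast genes, both lower, beside 30.8% of all genes. The part of these tissues in the vessel genes' values was not tested.

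The genes whose pattern was most like the members were found by Pearson r between log2 CPM and the mean of the members' standardized log2 CPM, over the 12 libraries and 16406 genes with a mean of at least 1 CPM. Plxnd1, a semaphorin receptor of endothelium, came first (r = 0.972) and Tie1 second (r = 0.967). Kcnj8, a potassium channel subunit of pericytes, was also among the first 10 (r = 0.959). The remaining 7 were Hdc, which makes histamine, Crocc2, Dnai2, Vwa3b, Dthd1, Tekt4 and Cd177, with r from 0.948 to 0.962. Dnai2 is a subunit of ciliary dynein and Tekt4 a protein of the ciliary axoneme, so the pattern is not one of vessel genes alone. After group means were taken out, the first 10 kept an r of 0.90 to 0.96. An r above 0.5 was found for 25.8% of all genes, for 21 of the 24 other endothelial genes and for 9 of the 21 angiogenic genes. These libraries share 4 groups and the position of ET replicate 2, and the values are a description only.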

How the data were processed

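RNA of 12 teratomas (ET, WT, K238R and K412R, 3 each) was sequenced. Per the study's methods, trimming used fastp, alignment STAR and quantification Salmon. The authors deposited estimated counts per gene and library, without normalization, as whole numbers. The submitters' processing notes name GRCm39 and also GATK, and the annotation, strand setting and handling of molecular identifiers are not given in the sources used here.

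Genes were kept by filterByExpr (edgeR 4.0.16 in R 4.3.3, minimum count 10, minimum total 15), scaled by TMM and tested with the robust quasi-likelihood fit over all 4 groups, with Benjamini-Hochberg adjustment over 18405 genes. Intervals are 1.96 SE on either side. DESeq2 1.42.0, RLE and library-total scaling, no filter, fits of 2 groups, a replicate block and leaving out libraries were alternatives. Leaving out ET replicate 2 together with WT replicate 1 was chosen after seeing the data. In data simulated for WT against ET (18160 genes), 184 of 200 genes changed 4-fold were recovered, with 11 false calls. These data had no library set apart like ET replicate 2, and their changes were larger than those of the members. The recovery thus does not measure the power for the members.

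The members and all lists were chosen with earlier results of these data known. Named were all members, Dnmt3l, from each other list the genes called or, with none called, up to 3 of the highest mean CPM, and the 10 genes most like the members. Tie1, Sox17, Tal1, Ptprc and Rgs5 were named after their values were seen. A single gene, Gm26917, held 7.47 to 13.9% of the counts of a library, and leaving it out of the totals moved 14 of the 40 group means in CPM by more than 1 SD. The smaller totals raise every CPM by themselves, and no comparison of groups was refitted without this gene.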

Additional observations from a re-analysis of the deposited data

How the results depend on the processing

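The counts of members called were the least stable values. Leaving out 1 library gave 0 to 7 called in WT against ET, 0 to 3 in K238R (the libraries so labelled) against WT, 0 to 1 in K412R against WT, 0 to 7 for any difference among the groups, and 0 against ET for K238R and K412R. ET replicate 2 gave the values of 7, 3, 1 and 7, and WT replicate 1 gave 1 (Kdr) in WT against ET and 1 (Tek) in K412R against WT. With ET replicate 2 and WT replicate 1 both left out, the counts were 8, 5, 4 and 7, and 1 (Cdh5) in K412R against ET. DESeq2 called 1, 3, 1 and 2. A fit of the 2 groups alone called 1 in K238R against WT (Vwf) and 1 in K412R against WT (Cldn5), among 385 and 1877 of all genes. RLE scaling, library totals and no filter on low counts each called 0 throughout. The cause of these differences was not tested. Over all genes, WT against ET gave 9 calls with all libraries, 0 in the fit of the 2 groups alone, 1922 with DESeq2, 5784 without ET replicate 2, 1309 without WT replicate 1, 0 or 1 without any other single library, and 6977 without both ET replicate 2 and WT replicate 1. Leaving Gm26917 out of the totals, which raises every CPM, moved 14 of the 40 group means in CPM by more than 1 SD, and library totals moved 0. No comparison of groups was refitted without Gm26917.

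Whether replicate numbers pair the samples, for example by a shared batch, is not given in the labels and was not settled by correlation. Over 18 same-numbered pairs r ran from -0.237 to 0.361, with 7 above 0.1. The fit with the replicate block called 1 member (Tek) in K238R against WT, 1 (Tek) in K412R against WT and 0 elsewhere. Over all genes it called 926 in WT against ET, 203 in K238R against WT and 1131 in K412R against WT, where the fit without it called 9, 41 and 375. The block turned the sign of Pecam1 (0.0062), Cldn5 (0.013) and Plvap (0.0042) in K412R against ET.

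Small log2 differences, none of them past the threshold with all libraries, changed sign when 1 library was left out. Flt1 ran from -0.22 to 0.083 in WT against ET and from -0.017 to 0.24 in K238R against WT, and Cdh5 from -0.017 to 0.19 in K412R against WT. In K238R against ET the ranges were -0.27 to 0.17 (Pecam1), -0.44 to 0.074 (Cdh5), -0.12 to 0.19 (Flt1), -0.64 to 0.33 (Vwf), -0.18 to 0.10 (Emcn), -0.62 to 0.56 (Cldn5), -0.59 to 0.092 (Erg) and -0.14 to 0.49 (Plvap). In K412R against ET they were -0.14 to 0.31 (Pecam1), -0.055 to 0.92 (Vwf), -0.012 to 0.16 (Emcn), -0.49 to 0.71 (Cldn5), -0.32 to 0.38 (Erg) and -0.23 to 0.41 (Plvap). With ET replicate 2 and WT replicate 1 both left out, K238R against ET turned positive for Pecam1 (0.17), Cdh5 (0.075), Vwf (0.33), Emcn (0.080), Cldn5 (0.57) and Erg (0.093), and K412R against ET for Pecam1 (0.29), Cldn5 (0.68), Erg (0.36) and Plvap (0.38).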
